A study of Mus musculus with 6 samples.

Results

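The levels of 47 imprinted genes were examined in Morc3 knock-out (ko) and wild-type (wt) mouse embryonic stem (ES) cells by RNA-seq. The 47 genes were chosen by symbol, as genes known to be imprinted in the mouse, from the 24054 gene rows of the count tables. They were grouped here into 21 imprinted domains, that is, single genes or groups of neighbours under a shared control. The rule used no measured value. After a filter on low counts 32 of the 47 could be tested. A further 4 had 10 or more counts in all 6 libraries together without passing the filter, and 11 had fewer than 10.

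Imprinted genes are transcribed mainly from a single parental copy, and the copies are told apart by DNA methylation set in the egg or the sperm. Many sit in domains where a non-coding RNA from the other parental copy, or an insulator whose binding depends on the methylation, keeps the protein-coding neighbours silent. ES cells in culture are known to lose or gain such marks now and then, so that sister lines can differ at single domains. The libraries measured the sum of both parental copies. Which copy was transcribed was therefore not measured, and the parental copies named below are background.

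Morc3, an ATPase of the MORC family, was studied as a silencer of endogenous retroviruses. The 3 ko libraries came from the lines KO27-1, KO27-2 and KO27-3, called clones 1, 2 and 3 here. Each line is a single clone made from the wt ES cell line WT26 with Cas9 and guides against Morc3. The 3 wt libraries came from WT26 itself and carry the numbers p42, p43 and p56 in their titles, the meaning of which the labels do not give. All lines were kept without feeder cells on gelatin in medium with serum and LIF. The labels do not tell how the wt cultures were separated, so the p-values measure the spread between these samples, which may be technical in wt.

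Sense-strand gene counts came to between 10740618 and 14123131 per library, of which the 47 genes held 0.209% to 0.233%. Morc3 itself reached 116.8 ± 33.8 CPM (counts put on the scale of equal library sizes; SD, n = 3) in ko and 283.7 ± 16.2 CPM in wt, and clone 1 had the lowest level with 77.8 CPM. All 10 ES cell markers were tested, and their summed level was 6599 to 6679 CPM in ko and 6153 to 6192 CPM in wt. Of the 10, 7 had a log2 fold change above 0 and 3 below, and none was called. The gap between the sums came mainly from Dppa5a (1369 CPM in ko, 1017 CPM in wt, edgeR adjusted p 0.0231). Zfp42 (1463 and 1316 CPM, adjusted p 0.207) added most of the rest. The summed level of 10 fibroblast markers was 8.80 to 9.09 CPM in ko and 12.2 to 15.8 CPM in wt. Among them Thy1, with 4.80 ± 0.255 CPM in ko and 8.71 ± 0.475 CPM in wt (SD, n = 3), was called lower in ko (log2 fold change -0.86, edgeR adjusted p 0.0064), Lum and Acta2 had 1 count each in all 6 libraries together and Postn none. The 5 neural markers summed to 119.2 to 129.6 CPM in ko and 121.0 to 130.6 CPM in wt, mainly from Tubb3, and the 5 mesoderm markers to 0.849 to 1.91 CPM over all libraries. Markers of endoderm and trophoblast are given beside Sfmbt2. The part of such cells in the results was not tested. The library of wt p56 stood apart from p42 and p43, and values without it are given where it decides a result.

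Promoter sequences are shown first for the genes the results turn on: Sfmbt2 and Igf2r, which differed most clearly between the groups, Airn, the antisense partner of Igf2r, Peg3, which shares its promoter with Usp29, and Meg3 and Rian, whose domain had counts mainly in a single clone. Each window is from RefSeq on the GRCm38 build, runs from 250 bases before to 50 bases after an annotated start, and is written 5′ to 3′ on the strand of the gene. Capitals mark CG, the pair of bases that carries DNA methylation.
Sfmbt2, first start, plus strand, chr2:10370201-10370500: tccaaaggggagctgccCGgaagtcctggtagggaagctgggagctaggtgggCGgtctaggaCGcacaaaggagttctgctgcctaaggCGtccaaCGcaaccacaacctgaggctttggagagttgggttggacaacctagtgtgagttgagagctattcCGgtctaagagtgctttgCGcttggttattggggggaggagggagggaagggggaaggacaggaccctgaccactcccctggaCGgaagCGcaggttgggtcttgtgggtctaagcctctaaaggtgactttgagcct
Sfmbt2, second start, plus strand, chr2:10372186-10372485: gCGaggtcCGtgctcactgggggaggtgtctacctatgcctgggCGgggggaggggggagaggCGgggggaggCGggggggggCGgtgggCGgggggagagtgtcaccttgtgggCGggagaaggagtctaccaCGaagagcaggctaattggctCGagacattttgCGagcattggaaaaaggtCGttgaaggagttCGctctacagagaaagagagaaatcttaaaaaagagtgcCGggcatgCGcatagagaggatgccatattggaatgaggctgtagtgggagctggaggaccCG
Igf2r, minus strand, chr17:12769657-12769956: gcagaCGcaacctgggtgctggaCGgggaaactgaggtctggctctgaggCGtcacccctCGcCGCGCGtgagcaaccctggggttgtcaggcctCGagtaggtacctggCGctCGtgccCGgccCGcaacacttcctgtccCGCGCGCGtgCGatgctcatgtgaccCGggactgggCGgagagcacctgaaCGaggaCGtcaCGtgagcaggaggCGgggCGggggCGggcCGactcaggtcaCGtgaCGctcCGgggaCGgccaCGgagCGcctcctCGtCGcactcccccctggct
Airn, plus strand, chr17:12741061-12741360: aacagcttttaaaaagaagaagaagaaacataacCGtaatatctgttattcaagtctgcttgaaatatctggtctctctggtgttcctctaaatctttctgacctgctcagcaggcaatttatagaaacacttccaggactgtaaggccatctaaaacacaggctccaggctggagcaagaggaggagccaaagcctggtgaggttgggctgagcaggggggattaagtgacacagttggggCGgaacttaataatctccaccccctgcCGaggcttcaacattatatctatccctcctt
Peg3, minus strand, chr7:6730370-6730669: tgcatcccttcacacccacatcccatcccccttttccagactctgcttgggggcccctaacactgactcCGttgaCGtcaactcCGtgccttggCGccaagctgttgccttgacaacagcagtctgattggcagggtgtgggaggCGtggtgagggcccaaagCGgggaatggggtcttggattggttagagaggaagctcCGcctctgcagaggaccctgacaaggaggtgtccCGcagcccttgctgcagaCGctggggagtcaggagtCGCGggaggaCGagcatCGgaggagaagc
Meg3, plus strand, chr12:109540746-109541045: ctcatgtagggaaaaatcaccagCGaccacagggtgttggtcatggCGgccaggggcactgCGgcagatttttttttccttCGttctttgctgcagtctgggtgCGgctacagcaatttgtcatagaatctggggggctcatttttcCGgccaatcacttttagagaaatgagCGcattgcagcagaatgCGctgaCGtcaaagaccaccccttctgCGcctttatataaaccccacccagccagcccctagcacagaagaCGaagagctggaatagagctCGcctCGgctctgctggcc
Rian, plus strand, chr12:109603695-109603994: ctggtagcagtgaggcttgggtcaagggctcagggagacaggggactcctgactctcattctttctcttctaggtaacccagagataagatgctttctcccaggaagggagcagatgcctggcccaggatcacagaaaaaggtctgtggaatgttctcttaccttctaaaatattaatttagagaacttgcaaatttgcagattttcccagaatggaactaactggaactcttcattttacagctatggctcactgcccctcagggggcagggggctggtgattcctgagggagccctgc

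The windows differed widely in CG. The Igf2r window held 34 CG and the Airn window 3. The Meg3 window shown held 13, a window at a further Meg3 start, not shown, 1, and the Rian window 0. The Peg3 window held 13, and the 2 Sfmbt2 windows 9 and 16. Over all 32851 windows in the reference table the median was 7 CG, and 5.43% of them held none. For 35 of the 47 genes at least 1 window was counted, 51 windows in all, with a median of 16 CG. Any window of Impact, the imprinted gene on chromosome 18, was left out of this count. No chromosome was left out of the full set. The letters TGCCGC, on either strand, are the site bound by Zfp57, a zinc finger protein that protects methylated imprints. They occurred in 14 of these 51 windows (27.5%), among them the Meg3 window shown, against 11.6% of all windows. None of the other windows printed above held them. Windows can overlap: Snrpn and Snurf share 1 of these windows, and with overlapping windows on a strand merged, 12 of 47 held the letters. The letters hold a CG and the windows of the imprinted genes were richer in CG than the rest, so the shares are not like for like. The Peg3 window and the window of Usp29 on the other strand shared 263 bases.

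No imprinted gene was called at an adjusted p under 0.01 by edgeR's quasi-likelihood test, where 1.28% of all 12222 tested genes were called. The study used the same threshold, but with DESeq2. At this threshold DESeq2 called 2 of the 35 imprinted genes it tested, Sfmbt2 and Igf2r, beside 1.79% of all the genes it tested. Limma-voom called 0 of 32, beside 1.22% of all. At an adjusted p under 0.05 edgeR gave 2 of the 32 tested genes, Sfmbt2 and Igf2r, both lower in ko, against 2.71% of all tested genes. At an unadjusted p under 0.05 it gave 6 of 32 (18.8%), 3 higher and 3 lower in ko, against 14.3% of all tested genes. The directions were balanced over the 32 genes, with 16 log2 fold changes above 0 and 16 below and a median of -0.000055 beside -0.00010 over all tested genes. The median size of the log2 fold change was 0.13 for the imprinted genes and 0.10 for all tested genes, and none of the 32 differed by 1 or more on the log2 scale.

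The directions were mixed for both parental copies. Of 14 tested genes known to be expressed from the maternal copy, 6 lay above 0 and 8 below, with a median log2 fold change of -0.02. Of 18 known to be expressed from the paternal copy, 10 lay above 0 and 8 below, with a median of 0.02. All ko libraries lay above all wt libraries for 4 of the 32 genes (Peg3, Grb10, Mcts2 and Ascl2), where 9.67% of all tested genes did so. All ko libraries lay below all wt libraries for a further 4 (Igf2r, Sgce, Mkrn3 and Sfmbt2), beside 10.2% of all tested genes. Both counts correspond to 12.5% of the 32.

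**Figure D1:**
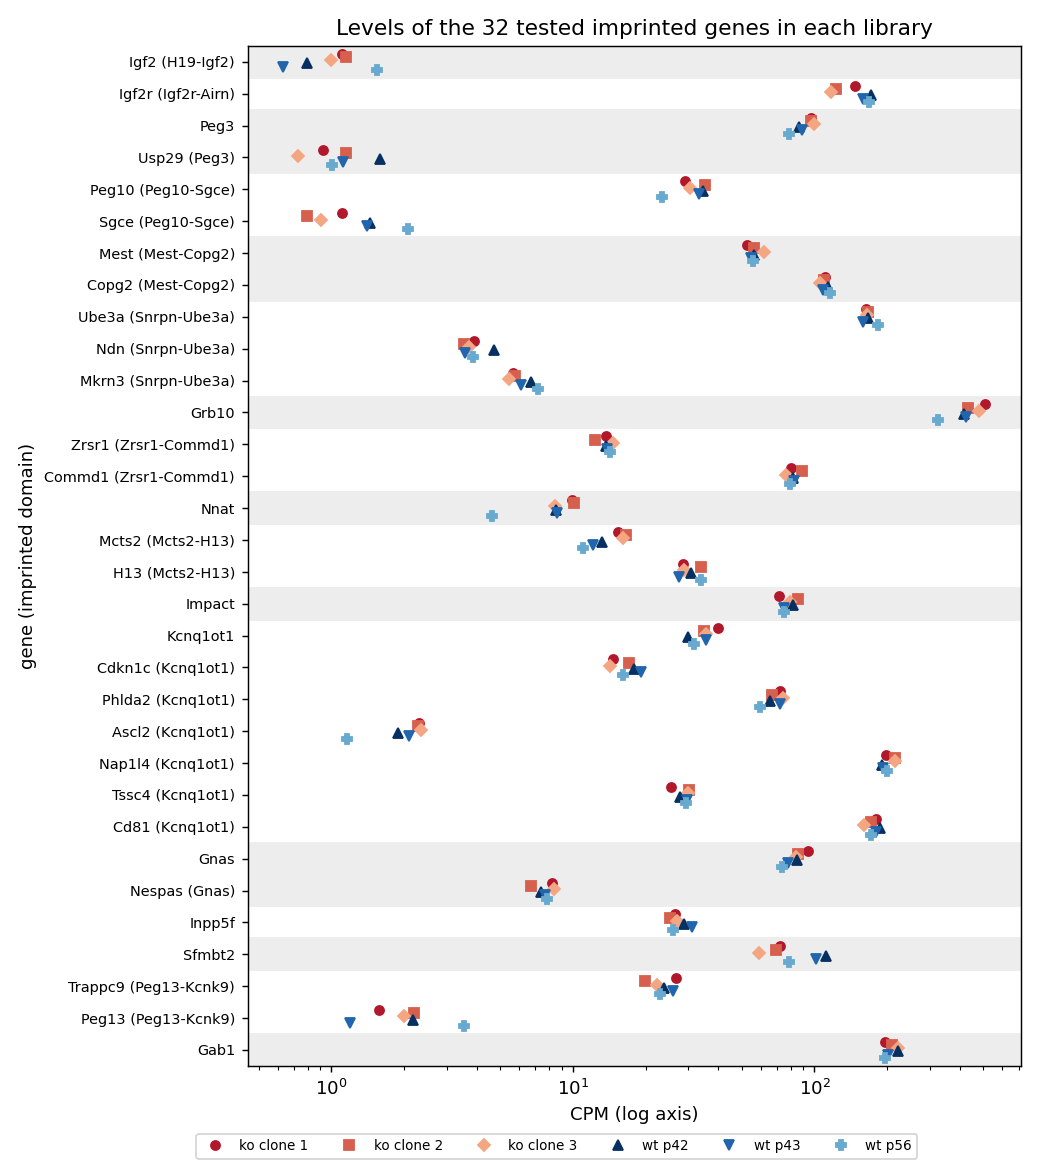
Levels of the 32 tested imprinted genes in each of the 6 libraries, in CPM on a log axis, ordered by domain with bands in grey; 1 marker stands for 1 library. Libraries of a gene lie close together for most genes, and wt p56 lies apart for Igf2, Nnat and Ascl2; CPM is not corrected for length.

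**Figure D2:**
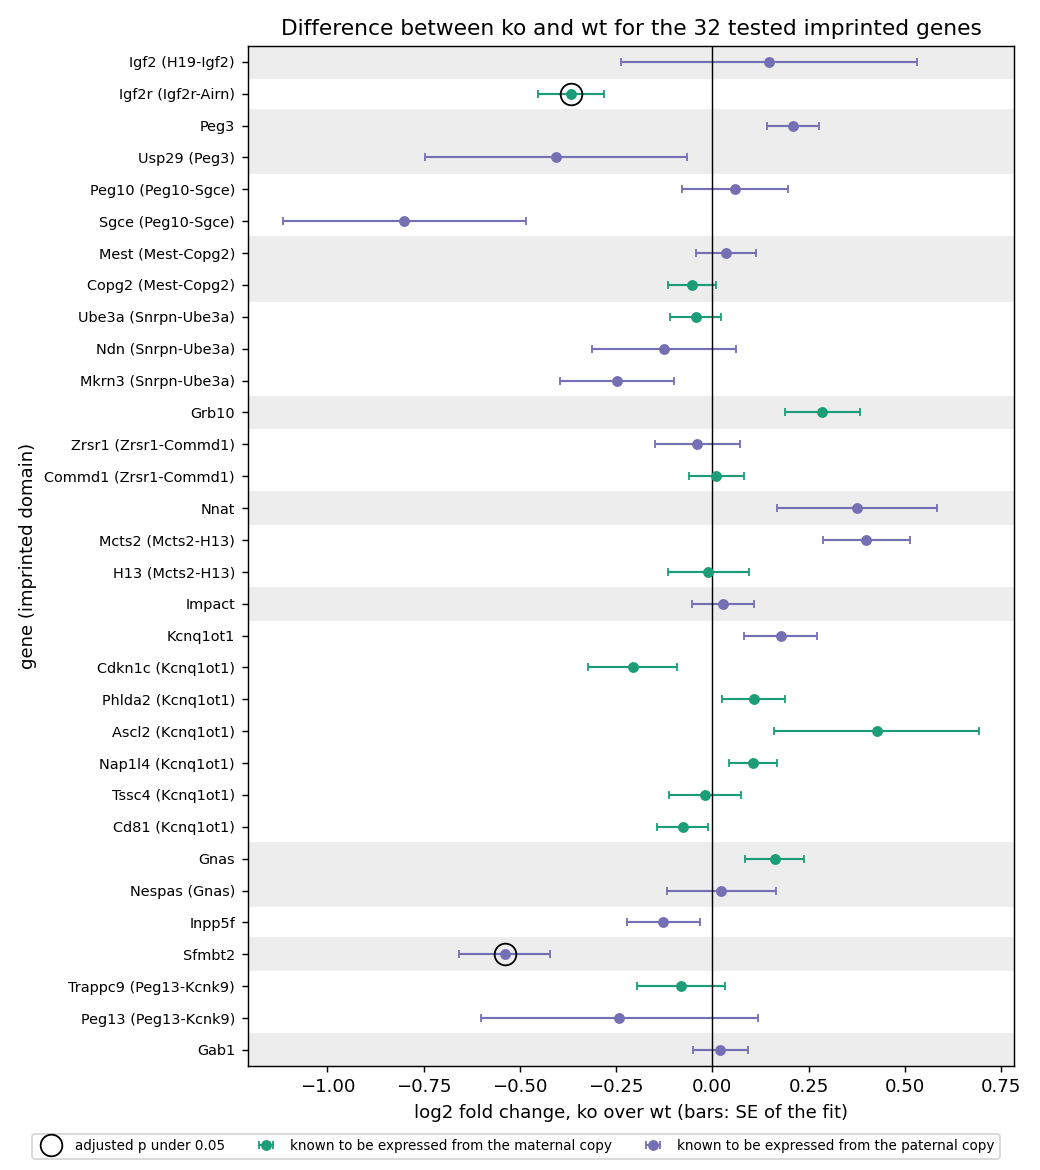
Log2 fold change of ko over wt for the same 32 genes, with bars for the standard error of the fit and rings around genes with an adjusted p under 0.05. Sfmbt2 and Igf2r carry the rings, and 16 points lie on each side of 0 with both colours (the parental copy known to be expressed) on each side.

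Per kilobase of annotated exon, the levels in wt spanned a wide range. Nap1l4 (62.8 CPM per kb), Cd81 (62.4), Phlda2 (58.6), Grb10 (42.7) and Gab1 (40.6) led the list in wt, and in ko Nap1l4 reached 67.6, Phlda2 63.2 and Cd81 59.2 CPM per kb. The gaps between Nap1l4, Cd81 and Phlda2 were small beside the spread between libraries, so these 3 are not ranked. At the low end were Igf2 (0.173 CPM per kb in wt), Sgce (0.155) and Usp29 (0.069).

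Sfmbt2 showed the clearest difference. It lies on chromosome 2 (10370440 to 10595253, plus strand), encodes a protein with MBT repeats related to the Polycomb group, is known to be expressed from the paternal copy in the early embryo and extraembryonic tissues, and carries a large cluster of rodent microRNAs in an intron. Its level was 71.8, 69.4 and 59.2 CPM in ko clones 1, 2 and 3 and 111.2, 101.2 and 78.8 CPM in wt p42, p43 and p56. All ko clones lay below all wt cultures, and p56 lay nearer to the ko clones than to p42. The ko clones averaged 66.8 ± 6.70 CPM and the wt cultures 97.0 ± 16.6 CPM (SD, n = 3 each). The log2 fold change came to -0.54 (SE 0.12), with 0.0302 as edgeR's adjusted p. DESeq2 called Sfmbt2 with an adjusted p of 7.4e-04. Without wt p56 the edgeR log2 fold change was -0.67 and the adjusted p 4.3e-06. Leaving out any other library gave an adjusted p between 0.0704 and 0.214.

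The annotation places 53 microRNA rows inside Sfmbt2 on its own strand, and 12 of them had counts. Read pairs of this length that overlap a hairpin come from long RNAs, not from mature microRNAs. The summed counts of the rows were 14, 27 and 18 in ko clones 1, 2 and 3 and 37, 45 and 27 in wt p42, p43 and p56. In CPM these sums were 1.29, 2.38 and 1.63 in ko and 2.68, 3.15 and 2.08 in wt, so that the groups overlapped. Clone 1 was lowest here but not in Sfmbt2 itself. The row Mir669i, named after its values were seen, held most of these counts with 4, 18 and 12 in ko and 24, 25 and 15 in wt. On the opposite strand 3 of the 53 rows had counts, with sums of 4, 9 and 7 in ko and 11, 15 and 12 in wt. In CPM these were 0.370, 0.794 and 0.635 in ko and 0.797, 1.05 and 0.927 in wt, so that they also lay lower in ko, if narrowly. The source of the opposite-strand read pairs was not tested. Since Sfmbt2 is known from extraembryonic cells, markers of those cells are given beside it. The summed level of 10 primitive and visceral endoderm markers was 23.2 to 24.2 CPM in ko and 43.3 to 45.9 CPM in wt. Nearly all of it came from the basement membrane collagen Col4a1 (22.0 ± 0.564 CPM in ko, 41.1 ± 0.972 CPM in wt, SD, n = 3), which was called lower in ko (log2 fold change -0.90, SE 0.08, edgeR adjusted p 6.0e-05). Of the other 9, 8 stayed under 1 CPM in the mean of both groups. The summed level of 10 trophoblast markers was 56.4 to 69.8 CPM in ko and 63.5 to 79.3 CPM in wt, and none of the 3 tested ones passed an unadjusted p of 0.05. Of the 10, 6 stayed under 1 CPM in the mean of both groups, and 3 of these (Hand1, Tpbpa and Prl3d1) had no count. The sum thus came from the few others, of which Plet1 gave 7.52 CPM in ko and 9.06 CPM in wt. The part of these cells in the result was not tested, and in bulk RNA fewer cells of a type cannot be told apart from less RNA per cell.

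Igf2r was the other gene past an adjusted p of 0.05. Igf2r (chromosome 17, 12682406 to 12769706, minus strand) encodes a receptor that carries Igf2 and lysosomal enzymes to the lysosome, and its paternal copy is known to be silenced in most tissues by Airn, a long non-coding RNA transcribed across it from the other strand. Its level was 147.4, 122.4 and 116.6 CPM in ko clones 1, 2 and 3 and 171.6, 159.1 and 167.6 CPM in wt p42, p43 and p56. The groups did not overlap, and clone 1 lay nearest to wt. The ko clones averaged 128.8 ± 16.3 CPM and the wt cultures 166.1 ± 6.39 CPM (SD, n = 3 each), and the log2 fold change came to -0.37 (SE 0.09), with 0.0429 as edgeR's adjusted p. DESeq2 called it with an adjusted p of 0.0062. It was also called without clone 1 (log2 fold change -0.47, edgeR adjusted p 0.0082) and without wt p56 (-0.36 and 0.0069), while leaving out any other library gave an adjusted p between 0.0613 and 0.252. Airn (chromosome 17, 12741311 to 12859884, plus strand) had 1 count in clone 1, 1 in wt p42 and none in the other 4 libraries. The plus-strand read pairs over the exons of Igf2r came to 4 in all libraries, beside 11079 on the Igf2r strand. Counts in the annotated exons of Airn were thus near 0 in both groups. Airn starts inside Igf2r and crosses only a part of the Igf2r exons. Read pairs from Airn outside annotated exons were not counted, so the level of the whole RNA is not known.

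Grb10 (chromosome 11, 11930499 to 12037428), an adaptor protein that binds insulin and IGF receptors and restrains growth, lay higher in ko without passing the threshold. Clones 1, 2 and 3 had 509.9, 431.5 and 479.8 CPM, against 417.1, 423.6 and 325.0 CPM in wt p42, p43 and p56. All ko clones lay above all wt cultures, but clone 2 lay close to p43 and the width of the wt group came from p56. Its log2 fold change was 0.29 (SE 0.10, edgeR adjusted p 0.186), and 0.17 without wt p56 (adjusted p 0.149). The growth factor gene Igf2 (chromosome 7, 142650768 to 142666816) had 12, 13 and 11 counts in ko and 11, 9 and 20 in wt. In CPM these were 1.11, 1.15 and 0.998 in ko and 0.797, 0.630 and 1.54 in wt, with p56 above p42 and p43 on few counts. The groups overlapped (log2 fold change 0.15, SE 0.38, adjusted p 0.910). H19, the maternal non-coding RNA of the same domain, had 1 count in clone 2 and 1 in wt p43.

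**Figure D3:**
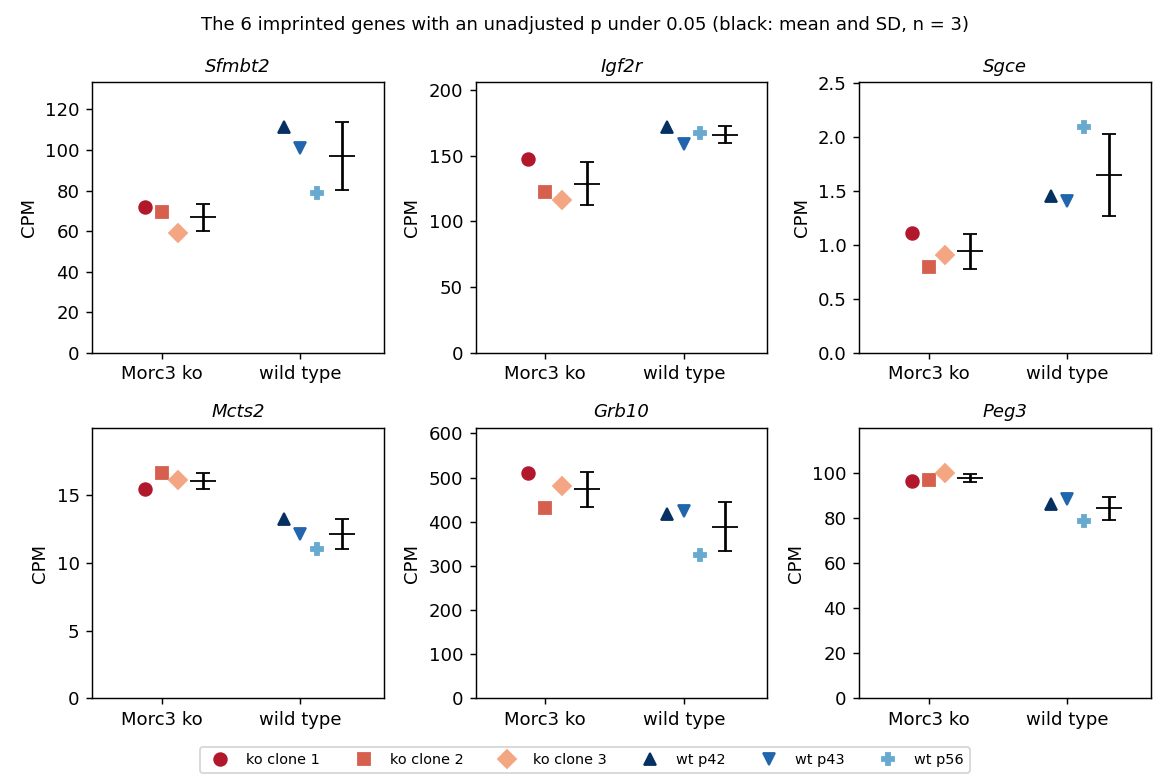
CPM of the 6 imprinted genes with an unadjusted p under 0.05 in each library, with the mean and SD of each group in black (n = 3); each axis starts at 0. The groups do not overlap in any of the 6 panels, and wt p56 lies farthest from the other 2 wt cultures in Sfmbt2, Sgce, Grb10 and Peg3.

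In the Peg3 domain on chromosome 7, Peg3 and Usp29 start back to back in the window printed above. Peg3 (6703892 to 6730462, minus strand) encodes a large zinc finger protein. Clones 1, 2 and 3 had 96.6, 96.7 and 99.9 CPM, against 86.2, 88.4 and 78.7 CPM in wt p42, p43 and p56. The ko clones were tightly grouped above all wt cultures (log2 fold change 0.21, SE 0.07, edgeR adjusted p 0.157). Usp29 (6730559 to 6967220, plus strand), a ubiquitin-specific protease, had 10, 13 and 8 counts in ko and 22, 16 and 13 in wt, or 0.924, 1.15 and 0.726 CPM in ko and 1.59, 1.12 and 1.00 CPM in wt. The groups overlapped (log2 fold change -0.41, SE 0.34, adjusted p 0.677). Per kilobase of exon, Peg3 reached 6.34 CPM in wt and Usp29 0.069, although their windows share most bases. Zim1, a zinc finger gene known from the maternal copy, was not tested, with 4, 3 and 3 counts in ko and 11, 5 and 6 in wt.

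In the Peg10-Sgce domain on chromosome 6 the paternal neighbours Sgce and Peg10 went apart. Sgce (4674350 to 4747204, minus strand), which encodes a sarcoglycan of the cell membrane, had 12, 9 and 10 counts in ko clones 1, 2 and 3 and 20, 20 and 27 in wt p42, p43 and p56. In CPM these were 1.11, 0.794 and 0.907 in ko and 1.45, 1.40 and 2.08 in wt, with no overlap. The difference, -0.80 on the log2 scale (SE 0.32), had an edgeR adjusted p of 0.263. Without wt p56 it was -0.60 (adjusted p 0.393). Peg10 (4747306 to 4760517, plus strand), a placental gene that arose from a retrotransposon, reached 29.1, 35.2 and 30.6 CPM in ko and 34.5, 33.1 and 23.3 CPM in wt. The p56 culture lay below all others, and the groups overlapped (log2 fold change 0.06, SE 0.14, adjusted p 0.899). Without p56 the sign turned, with a log2 fold change of -0.09.

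Mcts2 and H13 share a stretch of chromosome 2. Mcts2 (152687148 to 152687946) is a retrogene, a spliced copy of the X-linked gene Mcts1 that lies in an intron of H13, which encodes a signal peptide peptidase. Mcts2 reached 15.4, 16.6 and 16.1 CPM in ko clones 1, 2 and 3 and 13.3, 12.1 and 11.0 CPM in wt p42, p43 and p56. All ko clones lay above all wt cultures (log2 fold change 0.40, SE 0.11, edgeR adjusted p 0.0979). The parent gene Mcts1 was also higher in every ko clone than in every wt culture, with 46.4 ± 3.82 CPM in ko and 37.9 ± 2.16 CPM in wt (SD, n = 3; log2 fold change 0.29, adjusted p 0.126). The counting left out read pairs that map to both copies, so Mcts2 is uncertain. H13 reached 30.4 ± 3.16 CPM in ko and 30.7 ± 3.12 CPM in wt (SD, n = 3; log2 fold change -0.01, adjusted p 0.982).

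The Dlk1-Meg3 domain on chromosome 12 was near 0 in all libraries but a single clone, in which most counts lay in Rian. In this domain the paternal copy is known to express Dlk1, a membrane protein related to Notch ligands, and Rtl1, which arose from a retrotransposon, while the maternal copy expresses the non-coding RNAs Meg3, Rian and Mirg, which hold snoRNAs and microRNAs and are thought to be made in a row from the Meg3 promoter. Silencing of the maternal RNAs is known from many ES and iPS cell lines. Rian (109603945 to 109661716, plus strand) had 35 counts in ko clone 1, 1 in clone 2, 1 in clone 3, 3 in wt p42, 2 in wt p43 and none in wt p56. In CPM, clone 1 stood at 3.23 (exact 95% Poisson interval 2.25 to 4.50), and the upper limits of the intervals of the other 5 libraries were 0.285 to 0.635. The ratio of clone 1 to the other 5 libraries was 29.6 (exact 95% interval 12.9 to 78.8), and to clones 2 and 3 it was 37.0 (9.51 to 318). These intervals cover counting error only. Rian and clone 1 were singled out after their values were seen, so the intervals are no test of a difference. Rian did not pass the filter. Without a filter the comparison of ko with wt, which rests on clone 1, gave an edgeR adjusted p of 0.123, and the difference of clone 1 from the other libraries cannot be tested.

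Meg3 and Mirg, the neighbours of Rian on its strand, had only a few counts, mostly in clone 1. Meg3 (109540996 to 109571729) had 2 counts in clone 1 and none elsewhere. Mirg (109734981 to 109749458) had 2 in clone 1, 1 in wt p42 and none in the other 4. Counts on the Meg3 strand were summed over all 66 rows of known strand between the start of Meg3 and the end of Mirg. They came to 45 in clone 1, 1 in clone 2 and 1 in clone 3. In wt p42, p43 and p56 the sums were 4, 2 and 0. A read pair that overlaps rows of both strands counts in each, so a sum may exceed the number of read pairs. On the other strand of the same stretch the sums were 0 in clone 1, 2 in clone 3, 1 in wt p43 and 0 in the remaining libraries, all in Rtl1. Of 58 microRNA rows in the stretch, 1 had counts on the Meg3 strand, Mir432 with 1 count in clone 1. The paternal Dlk1 had 1, 1 and 3 counts in ko and 2, 2 and 2 in wt. The higher count of clone 1 on the Meg3 strand thus came mainly from Rian, with 35 of the 45 summed counts. Meg3 and Mirg with 2 each and the stretch opposite Rtl1 with 4 are too few to show a difference along the whole stretch. The paternal genes stayed at or under 3 counts in every library. Clone 1 also had the lowest Morc3 level of the ko clones. Whether that level and the Rian counts are linked was not tested.

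**Figure D4:**
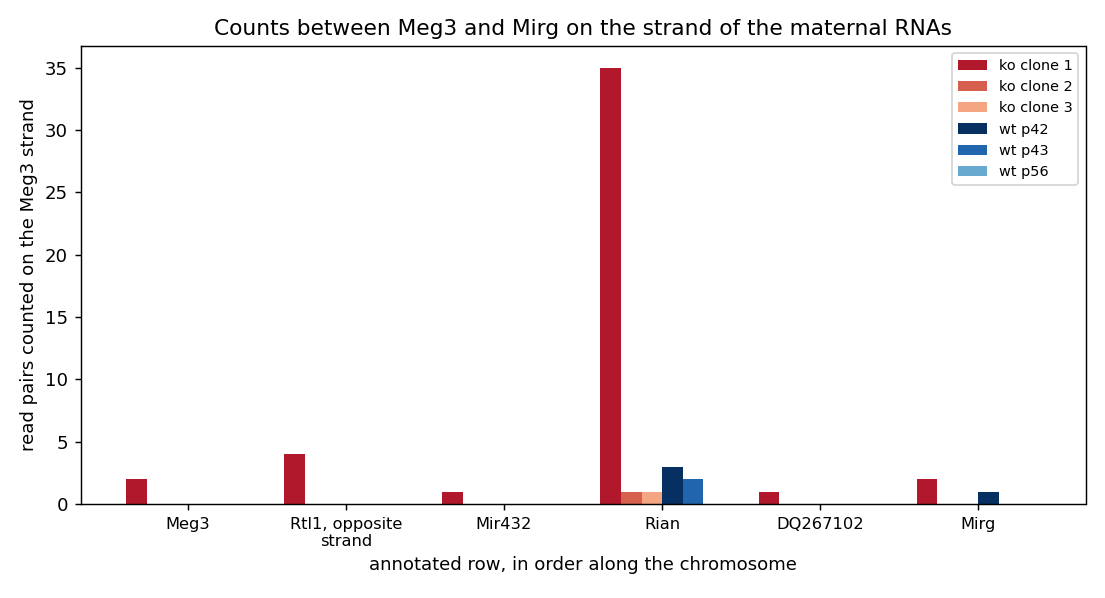
Counts per library on the Meg3 strand for the 6 rows between Meg3 and Mirg that had any, in their order along chromosome 12; bars are read pairs. Clone 1 holds 35 at Rian and 4 opposite Rtl1, and no bar of another library exceeds 3.

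Kcnq1ot1, with the 6 tested genes around it on chromosome 7, formed the largest domain that was fully tested. Kcnq1ot1 is the paternal non-coding RNA known to silence its neighbours, and it reached 36.8 ± 2.84 CPM in ko and 32.5 ± 2.82 CPM in wt (SD, n = 3; log2 fold change 0.18, adjusted p 0.437). Its maternally expressed neighbours went in both directions. Ascl2, a basic helix-loop-helix factor of the trophoblast, had 2.31, 2.30 and 2.36 CPM in ko clones 1, 2 and 3 and 1.88, 2.10 and 1.16 CPM in wt p42, p43 and p56. All ko clones lay above all wt cultures, and p56 was lowest (log2 fold change 0.43, SE 0.27, adjusted p 0.533). The cell cycle inhibitor Cdkn1c had a log2 fold change of -0.21 (adjusted p 0.470), Phlda2, a placental growth gene, 0.11 (0.633), the histone chaperone Nap1l4 0.11 (0.494), Tssc4 -0.02 (0.956) and the tetraspanin Cd81 -0.08 (0.685). None passed an unadjusted p of 0.05.

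The genes that varied most within a group varied mainly among the wt cultures. The non-coding RNA Peg13, which lies within Trappc9 on chromosome 15 and on the same strand, reached 1.57, 2.21 and 2.00 CPM in ko and 2.17, 1.19 and 3.55 CPM in wt p42, p43 and p56. Its lowest and highest values were both wt (2.75-fold apart), and the ko clones lay between them (log2 fold change -0.24, SE 0.36, adjusted p 0.832). Trappc9, a subunit of a vesicle tethering complex, had a log2 fold change of -0.08 (adjusted p 0.821), and the potassium channel gene Kcnk9 of the same domain had no count in any library. Nnat, a small membrane protein gene in an intron of Blcap on chromosome 2, reached 9.89, 10.1 and 8.44 CPM in ko and 8.55, 8.61 and 4.63 CPM in wt, with p56 alone below the rest. Its log2 fold change was 0.38 (SE 0.21, adjusted p 0.464) and 0.14 without p56.

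Each library was set against the mean of the other 2 of its group on a log2 CPM scale (prior count 2). The p56 culture lay more than 0.5 away in 6 of the 32 genes (18.8%, beside 11.7% of all tested genes): above in Igf2 (0.97), Peg13 (1.06) and Sgce (0.50), and below in Nnat (-0.87), Ascl2 (-0.70) and Peg10 (-0.53). The p43 culture did so in 2 (Igf2 and Peg13), p42 in 1 (Usp29) and the ko clones in 0, beside 4.71% to 7.91% of all tested genes in these libraries. Igf2, Peg13, Sgce, Ascl2 and Usp29 had few counts, where counting error is larger. The p56 culture was the lowest of its group in 17 of the 32 genes (53.1%, beside 41.0% of all tested genes). Among the factors that set and keep imprints, Dnmt3l, the partner of the de novo methyltransferases, moved with this library. It stood at 104.8 CPM in p56, 278.8 and 270.9 CPM in p42 and p43, and 222.1 to 305.5 CPM in ko, and is named here after its values were seen. It was not alone among these factors. Dnmt3a was lower in p56 (76.2 CPM) than in p42 and p43 (129.5 and 150.9 CPM). Tet2 was higher in p56 (267.5 CPM) than in p42 and p43 (190.5 and 188.0 CPM). Both are also named after their values were seen. The part of these genes in the other values of p56 was not tested.

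**Figure D5:**
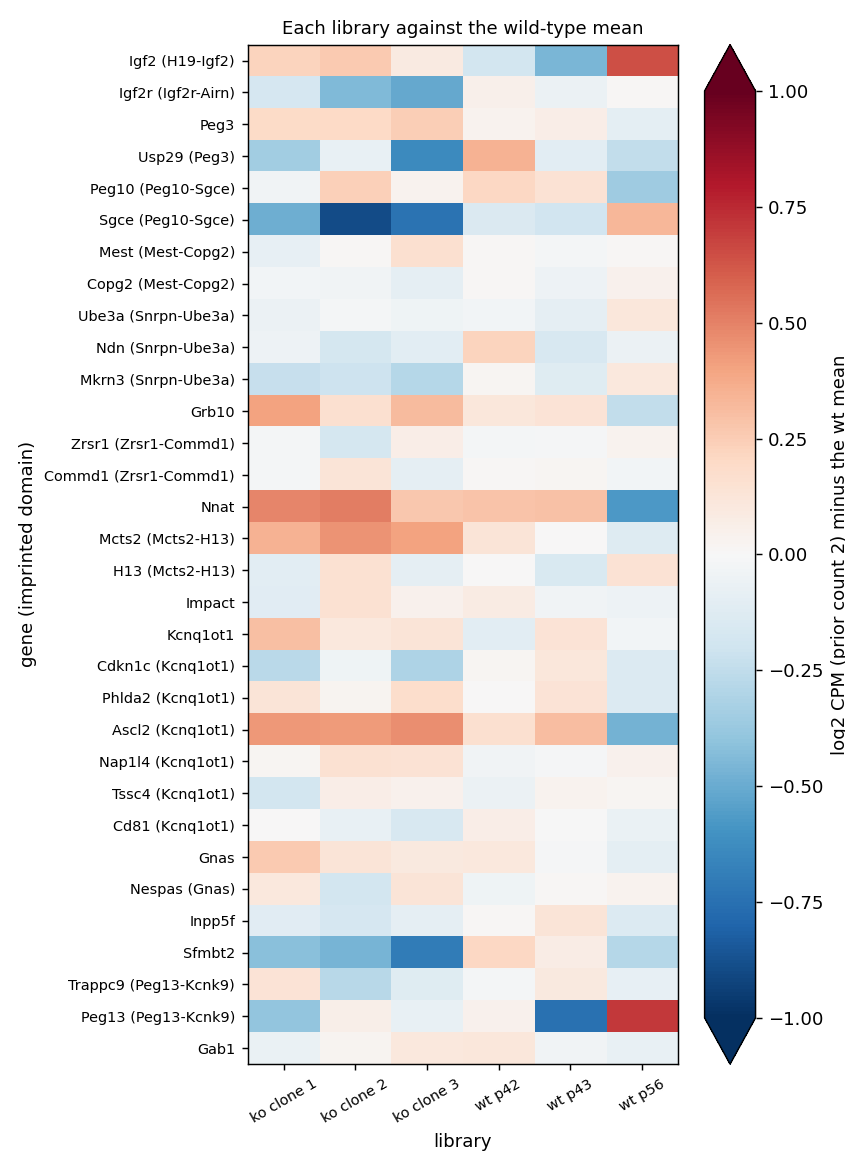
Each library's log2 CPM (prior count 2) minus the mean of the wt cultures, for the 32 tested genes in domain order; red is above and blue below the wt mean. Sfmbt2, Igf2r and Sgce are blue in all ko columns, and the wt p56 column stands out for Igf2, Nnat and Ascl2, and p43 and p56 lie on opposite sides for Peg13.

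In the Snrpn-Ube3a domain on chromosome 7 some paternal genes had few or no counts. The splicing protein gene Snrpn had 8 counts in all libraries together, Magel2 9 and Snurf 0. Read pairs in the exons that Snrpn and Snurf share count for neither, so their low counts do not show low levels. Mkrn3, a ubiquitin ligase gene, reached 5.64, 5.74 and 5.45 CPM in ko and 6.74, 6.09 and 7.18 CPM in wt, with no overlap, and its log2 fold change was -0.25 (SE 0.15, adjusted p 0.502). For Ndn, a paternal gene of neurons, the log2 fold change was -0.12 (adjusted p 0.833), and it was -0.04 (0.839) for Ube3a, a ubiquitin ligase known from the maternal copy in neurons.

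The remaining tested genes lay between -0.13 and 0.16 in log2 fold change, with adjusted p-values from 0.364 to 0.971. They were Gnas, which encodes the stimulatory G protein subunit, and its antisense RNA Nespas, Mest and Copg2, Zrsr1 and Commd1, Impact, Inpp5f and Gab1. Zrsr1, like Mcts2, is a retrogene that lies within another gene, here Commd1, and its parent Zrsr2 had a log2 fold change of -0.12. Some of these genes overlap a transcript of the other strand, and the strand-specific counts kept them apart. On the strand opposite to Copg2, a coat protein gene, there were 247 to 317 read pairs per library, or 17.1% of all its read pairs, and for 5 further genes (Nespas, Nnat, Inpp5f, Zrsr1 and Mest) the share was 5.04% to 9.95%. Over all tested genes the median share was 0.165%, and 8.13% of them exceeded 5%. Of the genes not tested, the zinc finger gene Plagl1 had 8, 18 and 7 counts in ko and 10, 8 and 17 in wt, and Nap1l5 and Dcn, the gene of the matrix protein decorin, had none in any library.

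A further 48 genes with reported imprinting, outside the 47, were read from the same fit. They were listed with earlier results of these data known, so their shares beside those of all tested genes are no test. Of these 48 genes 27 were tested, 14 with a log2 fold change above 0 and 13 below. At an unadjusted p under 0.05 there were 7 (25.9%, beside 14.3% of all tested genes), of which 1 was called (beside 1.28% of all tested genes). This was Rhox5, an X-linked homeobox gene, with 7.15 ± 1.26 CPM in ko and 32.0 ± 6.19 CPM in wt (SD, n = 3; log2 fold change -2.16, SE 0.17, edgeR adjusted p 1.6e-05). The other 6 were not called. The amino acid transporter gene Slc38a4 had 262.6 ± 8.59 CPM in ko and 327.7 ± 38.5 CPM in wt (log2 fold change -0.32, adjusted p 0.0590), and Tsix, the antisense RNA of Xist, 9.05 ± 1.83 and 5.05 ± 1.45 CPM (0.83, 0.0675). Gpr1 (log2 fold change 0.82) and Qpct (0.95) lay higher in ko and Peg12 (-0.72) and Pon3 (-0.79) lower, with adjusted p-values of 0.139 to 0.329 and mean levels under 4 CPM. Tsix overlaps Xist, which had 3 counts in all on its own strand. On the Tsix strand, the exons of Xist held 109, 101 and 130 read pairs in ko clones 1, 2 and 3. In wt p42, p43 and p56 they held 93, 144 and 101, so that the groups overlapped there.

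Of 25 genes for factors that set or keep imprints 24 were tested, and Ctcfl had 9 counts in all and was not. EdgeR called 0 of them. At an unadjusted p under 0.05 there were 3 (12.5%, beside 14.3% of all tested genes), all higher in ko. Suz12, a subunit of Polycomb repressive complex 2, had 339.8 ± 14.9 CPM in ko and 265.2 ± 17.3 CPM in wt (SD, n = 3; log2 fold change 0.36, SE 0.07, adjusted p 0.0119). The de novo methyltransferase Dnmt3b had a log2 fold change of 0.19 (adjusted p 0.157) and Zfp42 one of 0.15 (0.207). Zfp57 and Trim28, which bind and protect methylated imprints, reached 160.2 and 2935 CPM in ko and 167.8 and 2707 CPM in wt.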

How the data were processed

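RNA-seq libraries of 3 Morc3 ko ES cell clones and 3 wt ES cell cultures were analysed. The authors removed ribosomal RNA, prepared strand-specific libraries, aligned paired reads to mm10 (GRCm38) with STAR and deposited raw counts per gene, with 1 file per library and no pooling. The sources used here do not name the annotation. STAR counts a read pair only where it maps to 1 place and 1 gene, so genes with near-identical copies are undercounted. Lines without a gene (36.2% to 37.7% of the reads: unmapped, at several places, in no gene or ambiguous) stayed out of library sizes.

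Sense-strand counts were tested with edgeR 4.0.16 in R 4.3.3 (quasi-likelihood test, TMM, filterByExpr: count 10, total count 15, group as the only term, all 6 libraries). P-values were two-sided and Benjamini-Hochberg adjusted over all 12222 tested genes, and genes under 0.01 were called. Standard errors were taken as the absolute log2 change over the root of F. CPM was computed here with TMM-scaled library sizes, in which 3 counts equal 0.210 to 0.277 CPM. Counts per kilobase used GENCODE M21 exon lengths, which may differ from the authors' annotation. All 47 genes were matched to RefSeq positions, 1 of them (Nespas) by an older symbol. Alternatives included DESeq2 1.42.0 and limma-voom 3.58.1, other scalings and filters, counts that ignore strand, and leaving out each library.

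Genes given in full had an unadjusted p under 0.05 or were among the 6 with the largest fold between libraries of a group; a gene under 10 counts in all is given by count. The genes and lists were chosen with earlier results of these data known.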

Additional observations from a re-analysis of the deposited data

Results flagged for a closer look

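A signal was seen in the strand column that the comparisons do not use. On the strand opposite to Rtl1, which is the strand of Meg3 and Rian, ko clone 1 had 4 read pairs and the other 5 libraries, the 3 wt libraries among them, had 0. Rtl1 itself had 2 counts in clone 3, 1 in wt p43 and none elsewhere. With 4 read pairs the size of the difference is not well known, and a single clone allows no test.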

How the results depend on the processing

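The number of imprinted genes called, 0 of 32, became 2 (Sfmbt2 and Igf2r, both lower in ko) without a filter on low counts, with DESeq2 and at an adjusted p under 0.05, and ranged from 0 to 2 when each library was left out in turn. It stayed at 0 with RLE, upper-quartile or library-size scaling, a filter of 1 CPM in 3 libraries, limma-voom, a robust fit and counts that ignore strand. Over all genes, 156 calls became 286 without a filter, 254 with DESeq2, 331 at an adjusted p under 0.05, and 72 to 385 with 1 library left out, the highest count being without wt p56. The cause was not tested, but without a filter and with DESeq2 other numbers of genes were tested (17522 and 14191). With 1 library left out, the log2 fold change ranged from -0.56 (without wt p43) to 0.20 (without wt p56) for Peg13, from -0.10 (without wt p43) to 0.60 (without wt p56) for Igf2, and from -0.094 (without wt p56) to 0.17 (without wt p42) for Peg10, which was also below 0 without ko clone 2 (-0.02). Over 15 alternatives 18 of the 32 tested genes kept their direction. No paired analysis was possible because ko and wt libraries have no number in common.

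With 3 libraries a group, the differences at Sgce, Usp29 and Igf2, at about 1 CPM, did not pass the threshold. Of the 15 genes that did not pass the filter, 11 had a count and were tested without it, and 0 of them were called (lowest adjusted p 0.123, Rian; 1 at an unadjusted p under 0.05). The other 4 had no count.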
